A study of Mus musculus with 6 samples.

Results

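FGF receptors and the genes that damp or relay FGF signalling were followed in mouse neural stem cell cultures that differ in the brain region they were taken from. The set holds 10 genes: the receptors Fgfr1, Fgfr2 and Fgfr3, the inhibitors Spry1, Spry2, Spry4 and Spred1, the phosphatase gene Dusp6, and the transcription factor genes Etv4 and Etv5. All 10 were found among the 19938 genes measured, each read from the probe set that the platform annotation gives to that gene alone and that had the highest mean over the 6 arrays. Etv5 had a pair of such probe sets and the other genes had 1 each. The study set 3 arrays of cells from the subventricular zone of the third ventricle against 3 arrays of cells from the subventricular zone of the lateral ventricle. All 6 cultures came from wild type female C57BL/6 embryos at embryonic day 17.5. All were grown in low-attachment dishes in DMEM/Neurobasal medium supplemented with N2 and B27. FGF and EGF were present at 20 ng/ml each in every culture, so no culture without FGF serves as a baseline. The sources used here do not say which FGF was added or how long before harvest.

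FGFs bind receptor tyrosine kinases at the cell surface together with heparan sulfate, and the receptors signal through the adaptor Frs2 to Ras, Raf, MEK and ERK. ERK activity switches on a small group of genes that report on the signal. Among them are the ETS transcription factors Etv4 and Etv5, which carry the response into the nucleus, and the brakes Sprouty and Dusp6, which limit it. The Spred proteins are relatives of Sprouty that also limit Ras and ERK signalling. FGF keeps cultured neural stem cells dividing, and the EGF receptor feeds the same Ras and ERK kinases, so in a medium with both factors these genes can respond to either.

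Promoter sequences from RefSeq (GRCm38.p6) are shown for 3 of the genes, because Dusp6 had the largest difference between the regions, Etv5 was the gene of the set whose values across the arrays lay closest to those of Dusp6, and Fgfr2 ran the opposite way. Each run is the 250 bases before an annotated start, and capitals mark AGGAAG or its reverse complement CTTCCT, letters that ETS factors of the Etv4 and Etv5 group are known to bind. Etv5 has a second annotated start, which is not printed.
Dusp6 (chr10:99262981-99263230, plus strand): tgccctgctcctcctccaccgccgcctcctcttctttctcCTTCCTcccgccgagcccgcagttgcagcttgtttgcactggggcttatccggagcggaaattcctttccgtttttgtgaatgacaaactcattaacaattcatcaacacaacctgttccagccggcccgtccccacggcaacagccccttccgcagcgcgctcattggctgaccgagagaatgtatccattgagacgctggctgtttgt
Etv5 (chr16:22439571-22439820, minus strand): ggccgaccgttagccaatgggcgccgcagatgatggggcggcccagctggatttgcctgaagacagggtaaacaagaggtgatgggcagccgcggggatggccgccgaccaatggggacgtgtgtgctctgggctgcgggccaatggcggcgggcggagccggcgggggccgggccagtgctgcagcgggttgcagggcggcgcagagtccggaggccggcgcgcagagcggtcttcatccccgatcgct
Fgfr2 (chr7:130266809-130267058, minus strand): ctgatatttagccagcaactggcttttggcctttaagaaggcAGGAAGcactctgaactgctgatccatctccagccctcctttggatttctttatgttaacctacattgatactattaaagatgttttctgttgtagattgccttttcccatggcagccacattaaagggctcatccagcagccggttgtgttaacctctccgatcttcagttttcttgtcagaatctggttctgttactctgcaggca
Fgfr1, Etv4 and Spry4 were not searched. Of the 7 genes of the set that were searched, Dusp6 and Fgfr2 held AGGAAG on either strand. The 7 genes have 9 windows, and 2 of these windows held the letters. The letters lay with their first base 210 bases before the start of Dusp6 and 208 bases before that of Fgfr2. The same letters occur in 29.5% of the 32851 windows of this length. None of the 7 genes held CCGGAA or TTCCGG, another ETS motif, present in 12% of all windows. A match in these letters is a description of the sequence and does not show that a factor binds there.

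The values are log2 expression after RMA, the authors' normalization, and are not comparable between genes because each probe set has its own brightness. Over all probe sets the array medians lay between 5.43 and 5.47. As a gauge of background, the 1027 olfactory receptor genes had a 95th percentile of 5.03 to 5.16. The third ventricle arrays correlated with each other at 0.995 across genes. Within the lateral group, arrays 1 and 3 correlated at 0.990, and array 2 with them at 0.980 and 0.982, below its 0.991 with each array of the other region. Of the neural stem cell markers, 11 of 12 lay above the gauge on every array, and Prom1 did so on only part of them. That does not set stem cells apart, since 8 of 10 astrocyte markers, 9 of 11 oligodendrocyte lineage markers and 8 of 13 neuronal markers did the same. Of the endothelial markers, 6 of 8 stayed under the gauge throughout the 6 arrays, as did 4 of 8 microglial markers. The same held of the mesenchymal markers for 4 of 8, of the choroid plexus markers for 2 of 6 and of the neuronal markers for 3 of 13.

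None of the 10 genes passed between the third and the lateral ventricle at an adjusted p below 0.05 (limma, Benjamini-Hochberg adjustment over 19938 genes). Over all genes 46 passed, which is 0.231%. At an unadjusted p below 0.05 there were 2 of the 10, Dusp6 and Etv4, against 12.6% of all genes. The difference, the third minus the lateral ventricle, was positive for 9 of the 10 genes, against 45.4% of all genes. The median of the 10 differences was 0.28 on the log2 scale, against a median of -0.02 over all genes. Without lateral ventricle array 1 the median of the 10 was 0.14, 7 of the 10 were positive and 0 passed, against 0.125% of all genes. In bulk RNA, fewer cells of a type and less RNA per cell cannot be told apart.

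**Figure D1:**
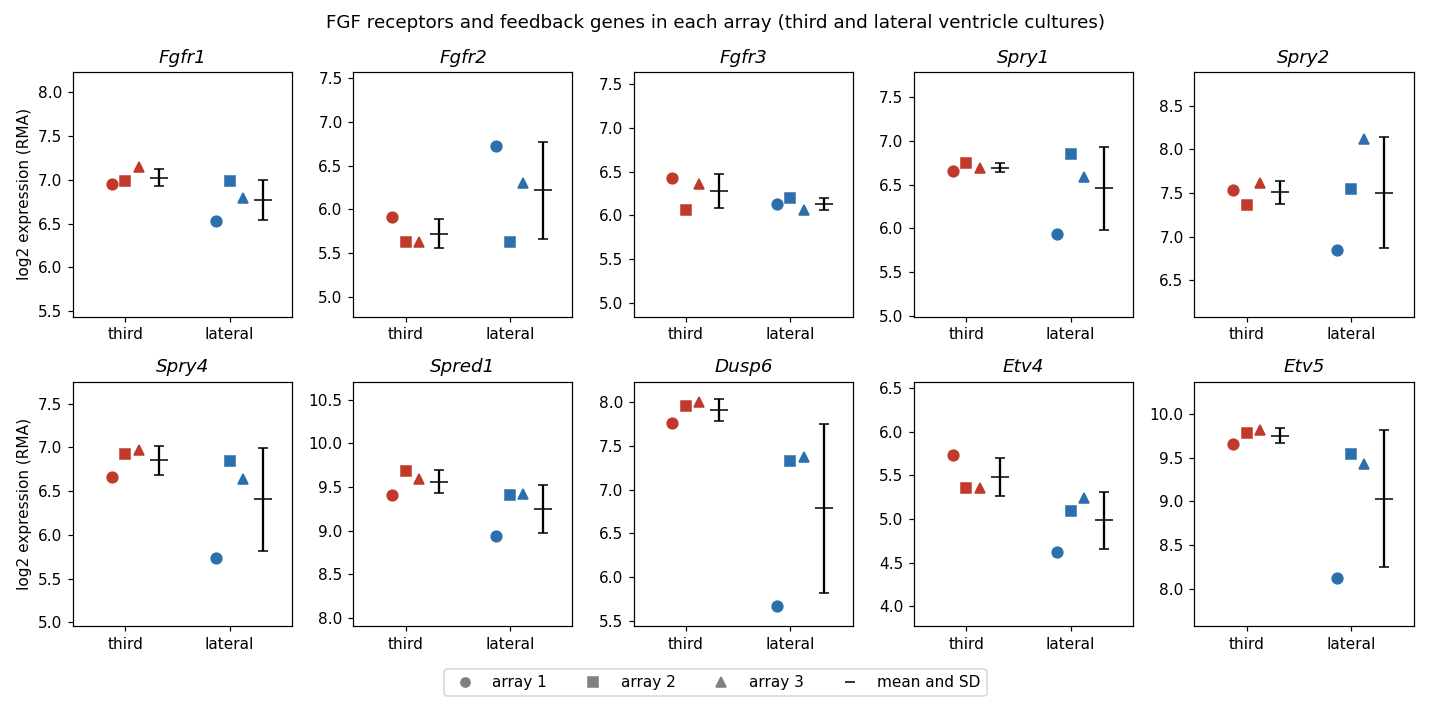
Log2 expression of each of the 10 genes (vertical axes, each spanning the same range) in the 3 arrays of the third ventricle (red, left) and the 3 lateral ventricle arrays (blue, right), with the mean and SD of each group. In the feedback genes from Spry1 to Etv5, lateral ventricle array 1 (blue circle) lies below every other array.

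Dusp6 encodes a phosphatase that removes the activating phosphates from ERK, and it had the largest difference of the set. Its log2 values were 7.76, 7.96 and 8.0 in the third ventricle arrays 1 to 3, against 5.67, 7.33 and 7.37 in lateral ventricle arrays 1 to 3. The groups did not overlap, and lateral ventricle array 1 lay far below both other lateral arrays. The means were 7.91 ± 0.13 in the third and 6.79 ± 0.97 in lateral ventricle cultures (SD, n = 3 each). The difference of 1.12 (SE 0.41, 95% interval 0.19 to 2.05), or 2.17-fold, did not pass (limma, adjusted p = 0.347). Without lateral ventricle array 1 the difference was 0.56 (adjusted p = 0.197), so that array carried a large share of it. Even then the 2 remaining lateral values lay below all values of the third ventricle.

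The ETS factor genes were ordered in the same way. Etv5 had log2 values of 9.66, 9.78 and 9.82 in the third ventricle arrays 1 to 3, against 8.13, 9.54 and 9.43 in lateral ventricle arrays 1 to 3. All values of the third ventricle lay above all lateral ones, but lateral arrays 2 and 3 came close to them. The difference was 0.72 (SE 0.33, 95% interval -0.05 to 1.49; limma, adjusted p = 0.416), and 0.27 without lateral ventricle array 1 (adjusted p = 0.541). The second Etv5 probe set gave 8.25, 8.45 and 8.31 in the third ventricle arrays, against 7.17, 8.12 and 8.04 in lateral ventricle arrays, so both probe sets placed lateral ventricle array 1 lowest and kept the groups apart.

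Etv4, the closest relative of Etv5 in the set, had log2 values of 5.73, 5.36 and 5.35 in the third ventricle arrays 1 to 3, against 4.62, 5.10 and 5.24 in lateral ventricle arrays 1 to 3. It exceeded the gauge on 3 of 3 arrays from the third ventricle and on 1 of 3 lateral ones, so its difference of 0.49 (SE 0.18, 95% interval 0.08 to 0.91; limma, adjusted p = 0.347) rests on dim values. Without lateral ventricle array 1 it was 0.31 (adjusted p = 0.579). Dusp6, Etv4 and Etv5 were the 3 of 10 genes whose values in the third ventricle all lay above the lateral ones, and 7.77% of all genes did so.

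The Sprouty proteins hold back receptor tyrosine kinase signalling upstream of ERK. Spry4 had log2 values of 6.67, 6.92 and 6.98 in the third ventricle arrays 1 to 3, against 5.73, 6.84 and 6.64 in lateral ventricle arrays 1 to 3. Lateral ventricle array 1 stood apart, while the other lateral arrays overlapped the third ventricle. The difference was 0.45 (95% interval -0.16 to 1.06; limma, adjusted p = 0.523), and 0.11 without that array.

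Spry1 measured 6.65, 6.75 and 6.69 in the third ventricle arrays 1 to 3, against 5.94, 6.85 and 6.59 in lateral ventricle arrays 1 to 3. Its values in the third ventricle were nearly level, and lateral ventricle array 2 was the highest of all 6. The difference of 0.24 (95% interval -0.24 to 0.72; limma, adjusted p = 0.691) became -0.02 without lateral ventricle array 1.

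Spry2 differed least between the group means. It measured 7.53, 7.37 and 7.62 in the third ventricle arrays 1 to 3, against 6.85, 7.54 and 8.12 in lateral ventricle arrays 1 to 3. The third ventricle values lay inside the lateral range, whose lowest value was again array 1 and whose highest was array 3. The difference was 0.0010 (95% interval -0.64 to 0.64; limma, adjusted p = 0.999), an interval that leaves room for a difference of either sign. Without lateral ventricle array 1 it was -0.33.

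Spred1, a Sprouty-related inhibitor that brings the Ras regulator neurofibromin to the membrane, measured 9.41, 9.68 and 9.59 in the third ventricle arrays 1 to 3, against 8.94, 9.40 and 9.42 in lateral ventricle arrays 1 to 3. Lateral ventricle array 3 lay just above the third ventricle array 1, so the groups overlapped narrowly. The difference was 0.31 (95% interval -0.04 to 0.65; limma, adjusted p = 0.435), and 0.15 without lateral ventricle array 1.

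The receptors did not share one pattern. Fgfr1, an FGF receptor of embryonic neural progenitors, measured 6.95, 6.99 and 7.14 in the third ventricle arrays 1 to 3, against 6.53, 6.99 and 6.79 in lateral ventricle arrays 1 to 3. Lateral ventricle array 1 was again lowest, and lateral ventricle array 2 equalled the third ventricle array 2. The difference was 0.26 (95% interval -0.04 to 0.56; limma, adjusted p = 0.457), and 0.14 without lateral ventricle array 1 (adjusted p = 0.739).

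Fgfr2 was the only one of the 10 with a negative difference. It measured 5.91, 5.63 and 5.63 in the third ventricle arrays 1 to 3, against 6.72, 5.63 and 6.30 in lateral ventricle arrays 1 to 3. Lateral ventricle arrays 1 and 3 were the highest of the 6, and lateral ventricle array 2 lay level with the lower arrays of the third ventricle. The difference was -0.49 (95% interval -1.07 to 0.08; limma, adjusted p = 0.454), and -0.24 without lateral ventricle array 1 (adjusted p = 0.739). Without lateral ventricle array 2 it was -0.79 and passed (adjusted p = 0.0173), the one call among the 10 genes in that fit, which called 8.25% of all genes and 3.88% as lower. Lateral ventricle array 2 does not share that difference.

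Fgfr3 measured 6.42, 6.06 and 6.35 in the third ventricle arrays 1 to 3, against 6.13, 6.19 and 6.06 in lateral ventricle arrays 1 to 3. The groups overlapped, and lateral ventricle array 1 was in the middle of them. The difference was 0.15 (95% interval -0.12 to 0.42; limma, adjusted p = 0.636), and 0.15 without lateral ventricle array 1.

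**Figure D2:**
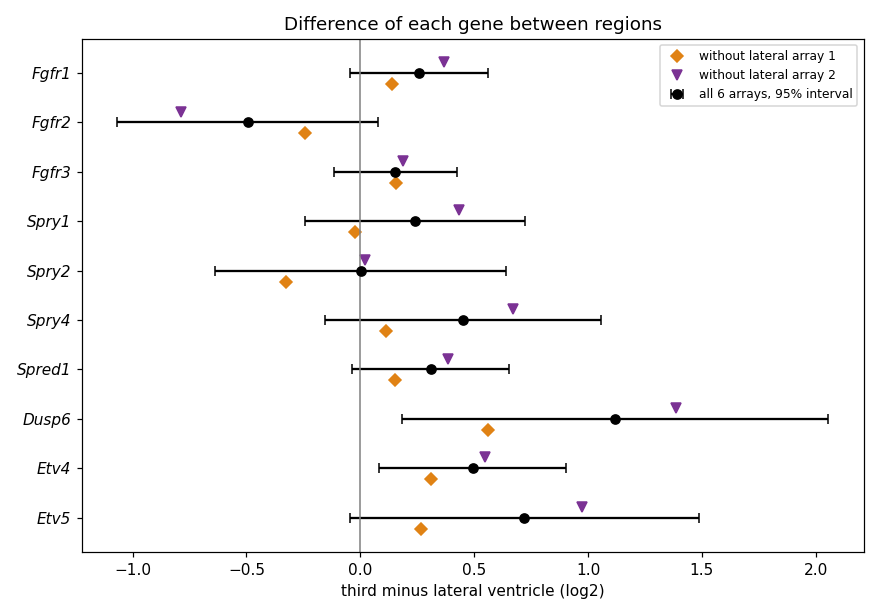
Difference between the third and the lateral ventricle, the third minus the lateral, (log2, horizontal axis) of each gene over all 6 arrays with its 95% interval (black), without lateral ventricle array 1 (orange) and without lateral ventricle array 2 (purple). Dusp6 has the largest difference at 1.12, and the differences of the 7 feedback genes are smaller or negative without lateral ventricle array 1.

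What the 7 feedback genes shared was their low level in lateral ventricle array 1. All 7 had their lowest value of the 6 arrays there, and Fgfr1 made it 8 of the 10 genes, against 23.3% of all genes. Relative to each gene's own mean over the 6 arrays, the median of the 7 feedback genes was 0.08, 0.27 and 0.18 in the third ventricle arrays 1 to 3, against -0.66, 0.04 and 0.01 in lateral ventricle arrays 1 to 3. Lateral ventricle array 1 lay below the mean of lateral ventricle arrays 2 and 3 by 1.67 for Dusp6, 1.36 for Etv5 and 1.01 for Spry4. A gap of at least 1 was found in 0.838% of all genes. It was 0.98 for Spry2, just short of that size, 0.78 for Spry1, 0.55 for Etv4 and 0.47 for Spred1. For each of the 7 the gap within the lateral group was larger than the difference between the group means, and it rests on a single array, so it carries no test.

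Cell cycle genes were also low in lateral ventricle array 1, but not in it alone. That array was the lowest of the 6 for 27 of 31 measured cell cycle genes, against 23.3% of all genes. Its value minus the mean of lateral ventricle arrays 2 and 3 had a median of -1.19 over them. Over 31 measured cell cycle genes, such as Mki67 and Top2a, the median relative to each gene's mean was 0.56, 0.54 and 0.58 in the third ventricle arrays 1 to 3, against -1.36, 0.55 and -0.89 in lateral ventricle arrays 1 to 3. Lateral ventricle array 3 was thus low in cell cycle genes, while the median of its feedback genes was close to the gene means. Those means include the low lateral ventricle array 1. Against the third ventricle arrays, Dusp6, Etv4 and Etv5 were lower in lateral ventricle array 3 too. Between lateral ventricle arrays 2 and 3 the cell cycle list differed by a median of 1.49, and every one of its genes was higher in array 2, by at least 0.63. The 7 feedback genes differed between the same arrays by a median of -0.01, with a range from -0.58 for Spry2 to 0.26 for Spry1. Dusp6 differed by -0.04 and Etv5 by 0.11. Fgfr2 differed by -0.68 between these arrays, in the opposite direction to the cell cycle list. These are single arrays, so the contrasts are descriptions with no test.

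**Figure D3:**
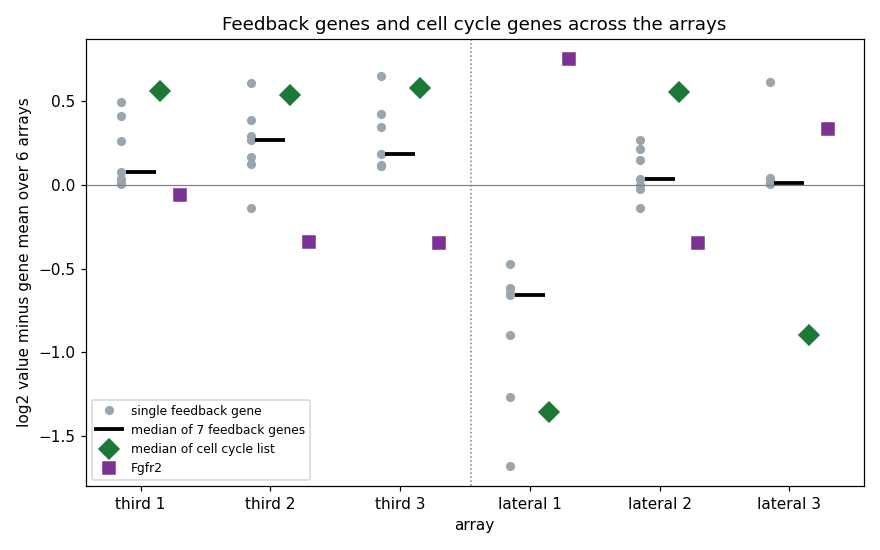
Log2 value minus the gene's mean over the 6 arrays (vertical axis) in each array, for the 7 feedback genes (grey), their median (black bar), the median of the cell cycle list (green) and Fgfr2 (purple). The median of the feedback genes is below 0 in lateral ventricle array 1 only, at -0.66, while cell cycle genes are low in lateral ventricle arrays 1 and 3, at -1.36 and -0.89.

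Within the lateral group, every astrocyte marker above the gauge on all 6 arrays was highest in array 1, Sparcl1 included. Over the 10 markers, lateral ventricle array 1 lay above the mean of lateral ventricle arrays 2 and 3 by a median of 0.69. That array was the highest of all 6 for 7 of the 10 markers, but not for Sparcl1, the brightest of them. Sparcl1, a secreted matrix protein, measured 10.80, 10.86 and 10.59 in the third ventricle arrays 1 to 3, against 10.24, 9.29 and 9.89 in lateral ventricle arrays 1 to 3. The groups did not overlap, and the difference of 0.94 did not pass (limma, adjusted p = 0.202). Apoe, the lipid carrier of astrocytes, measured 8.81, 8.13 and 7.96 in the third ventricle arrays, against 11.11, 8.27 and 9.58 in lateral ventricle arrays. The groups overlapped, and the difference of -1.35 did not pass (limma, adjusted p = 0.409). Relative to each gene's mean, the median of the 10 markers was -0.005, -0.01 and -0.07 in the third ventricle arrays 1 to 3. It was 0.44, -0.23 and -0.07 in lateral ventricle arrays 1 to 3. A sum of signals over the 10 markers is weighted toward the brightest probe sets. Its log2 was 11.6 to 11.8 in the third ventricle arrays, against 12.4, 11.0 and 11.5 in lateral ventricle arrays 1 to 3. Without Apoe, a choice made after the values were seen, it was 11.5 to 11.7 in the third ventricle arrays, against 11.6, 10.8 and 11.1 in lateral ventricle arrays 1 to 3, so lateral ventricle array 1 was then no longer the highest. Gfap and Gjb6 stayed under the gauge throughout.

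The 11 measured oligodendrocyte lineage markers join progenitor markers with the myelin genes Cnp, Mbp, Mog and Mag. Of the 11, 2 passed as lower in the third ventricle cultures and none as higher. Over all genes 0.231% passed in either direction. Pdgfra, the receptor that marks oligodendrocyte progenitors, measured 6.93, 6.58 and 6.69 in the third ventricle arrays 1 to 3, against 8.78, 8.25 and 8.53 in lateral ventricle arrays 1 to 3, a difference of -1.79 (limma, adjusted p = 0.00707). Lhfpl3 measured 7.64, 7.55 and 7.63 in the third ventricle arrays, against 8.92, 8.63 and 8.92 in lateral ventricle arrays, a difference of -1.22 (limma, adjusted p = 0.00746). For both genes every array of the third ventricle lay below every lateral ventricle array, not below lateral ventricle array 1 alone. Pdgfra did not pass without array 2 (adjusted p = 0.0858) or 3 (0.0798) of the third ventricle, and Lhfpl3 did not pass without array 1 (0.0587), 2 (0.0858) or 3 (0.0798) of the third ventricle, all by limma. The difference was negative for 9 of the 11 markers, Cnp, Mbp, Mog and Mag among them, against 10886 of all 19938 genes. Gpr17 and Sox10 differed by -1.35 and -0.74 and did not pass (limma, adjusted p = 0.133 and 0.118). Cspg4, another progenitor marker, differed by only -0.09 (limma, adjusted p = 0.831). The lineage factors Olig1 and Olig2, the markers with a positive difference, differed by 0.17 and 0.09 and did not pass (limma, adjusted p = 0.744 and 0.754). The log2 summed signal of the list was 10.4 to 10.5 in the third ventricle arrays, against 10.9 to 11.1 in lateral ventricle arrays, with Mag below the gauge in all 6. The part of oligodendrocyte lineage cells, or of the cell cycle, in the feedback gene values was not tested.

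The 5 genes whose values across the 6 arrays lay nearest to those of Dusp6 were Peg10, Ccnd1, Tubb6, Ccnd2 and Raet1d. Nearness was the Euclidean distance of log2 values after each gene's mean was removed, and it was 0.36 for Peg10, 0.40 for Ccnd1, 0.40 for Tubb6, 0.45 for Ccnd2 and 0.50 for Raet1d. Etv5, the nearest of the set itself, lay at 0.57. Ccnd1 and Ccnd2 encode the D-type cyclins that link growth factor signals to entry into the cell cycle. Ccnd1 had log2 values of 9.06, 9.37 and 9.33 in the third ventricle arrays 1 to 3, against 7.28, 9.09 and 8.81 in lateral ventricle arrays 1 to 3. Ccnd2 had 10.20, 10.39 and 10.34 in the third ventricle arrays, against 8.46, 10.16 and 9.97 in lateral ventricle arrays. Both cyclins were low in lateral ventricle array 1 and closer to the other arrays in lateral ventricle array 3. They were picked for nearness to Dusp6 over these same 6 arrays, so this likeness follows from the choice and is no separate result. Neither passed (limma, adjusted p = 0.429 for Ccnd1 and 0.449 for Ccnd2).

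Beyond these 10 genes, 101 of 108 listed genes of the pathway were measured, and none passed between the regions, with 16 at an unadjusted p below 0.05 against 12.6% of all genes. Their median difference was 0.0026, and 51 were positive. Of the 22 FGF ligand genes, 8 stayed under the gauge throughout, and the median difference was 0.02. Fgf14, an intracellular FGF that binds sodium channels and does not act through the receptors, differed by 0.48 (limma, adjusted p = 0.279), Fgf12 of the same subfamily by -0.06 and the secreted Fgf18 by 0.09. Among 11 other receptors and co-receptors, Fgfr4, Kl, Klb and Fgfbp1 lay below the gauge in all 6 arrays. The cadherin Cdh2 differed by -0.23, the adhesion molecule Ncam1 by -0.15 and Flrt2, of a family of FGF receptor partners, by 0.32.

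Heparan sulfate genes encode core proteins that carry the co-receptor sugar, or enzymes that build or trim it. They had a median difference of 0.09 over 20 measured genes, 14 of them positive. Sulf2, an extracellular enzyme that removes sulfate groups from heparan sulfate, measured 8.37, 8.42 and 8.40 in the third ventricle arrays 1 to 3, against 7.16, 7.92 and 7.87 in lateral ventricle arrays 1 to 3. The groups did not overlap, and lateral ventricle array 1 was again lowest. The difference of 0.75 did not pass (limma, adjusted p = 0.239). Ext1, which extends the sugar chain, differed by 0.07 and the syndecan Sdc2 by 0.31.

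The 18 measured signal transducers had a median difference of -0.01, with Nras at 0.14, the Ras GTPase activating proteins Rasa1 at 0.10 and Nf1 at -0.11. The 15 other feedback genes had a median of -0.03, with 6 positive and 9 negative and the lowest at -0.68. Spred2, the relative of Spred1, measured 9.15, 9.33 and 9.25 in the third ventricle arrays 1 to 3, against 8.27, 9.20 and 9.50 in lateral ventricle arrays 1 to 3, so it too was lowest in lateral ventricle array 1. It differed by 0.25 (limma, adjusted p = 0.759), the ETS factor Etv1 by 0.06 and the receptor antagonist Lrig1 by 0.27. The low value in lateral ventricle array 1 did not extend to all feedback genes, since 5 of these 15 were lowest there, against 23.3% of all genes. Nor was it confined to feedback genes. Of the heparan sulfate genes 11 of 20 were lowest in that array, and of the early ERK targets 7 of 15. The counts were 6 of 22 for the ligands, 2 of 11 for the other receptors and co-receptors and 4 of 18 for the transducers. The 15 early ERK targets had a median of -0.01, with 7 positive and 8 negative. The brightest were Myc at 0.05, Ccnd1 at 0.86 and Egr2, a zinc finger factor, at 0.28. Ccnd1 was at 0.30 without lateral ventricle array 1. At an unadjusted p below 0.05 (limma) there were 3 of the 15, against 12.6% of all genes. They were Phlda1 at -0.46, Fosl2 at -0.34 and Fos at -0.30, named here after their values were seen.

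Without lateral ventricle array 2, 7 of the 101 pathway genes passed, or 6.93%, against 8.25% of all genes. They were Fgf13, Fgf14, Sdc3, Sulf1 and Sulf2 as higher and Fgfbp3 and Spry3 as lower in the third ventricle cultures, named here after their values were seen. Spry3, a further Sprouty, measured 4.76, 4.78 and 5.06 in the third ventricle arrays 1 to 3, against 5.86, 5.06 and 5.70 in lateral ventricle arrays 1 to 3. It exceeded the gauge on 0 of 3 arrays from the third ventricle and on 2 of 3 lateral ones, where arrays 1 and 3 were high as for Fgfr2.

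**Figure D4:**
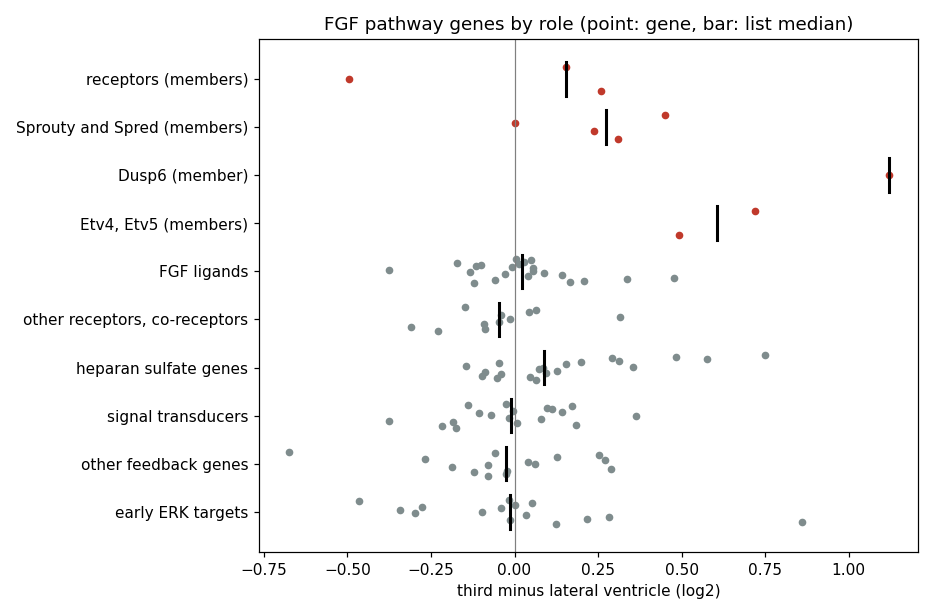
Difference between the third and the lateral ventricle, the third minus the lateral, (log2, horizontal axis) of each measured FGF pathway gene, by role, with the 10 genes of the set in red, the other pathway genes in grey and the median of each list as a bar. The other lists have medians between -0.05 and 0.09, and 0 of the genes drawn passed at an adjusted p below 0.05.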

How the data were processed

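RNA was extracted with Trizol and amplified as biotinylated cDNA with the NuGEN WT-Ovation Pico system, per the labels' protocols. The deposited table holds log2 values, 1 per probe set and array, which the authors summarized with RMA in Affymetrix Expression Console 1.1 according to the submitters' processing notes. Genome build and other settings: not given in the sources used here. RMA draws dim probe sets toward background, which understates their differences. Of 35556 probe sets, 21789 had 1 gene symbol, 1621 had several and 12146 were unlisted. No dim genes were removed.

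The third minus the lateral ventricle was tested with limma 3.58.1 in R 4.3.3 (lmFit, eBayes), p-values being adjusted by Benjamini-Hochberg over all 19938 genes at a threshold of 0.05. With 3 arrays in each group, the smallest two-sided p of an exact permutation test is 0.1. The labels speak of biological replicates without naming the animal behind each number, so p-values reflect the spread between these cultures only. Precision is limited by the number of arrays.

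The genes and lists were chosen with earlier results of these data known. Named genes are the 10 of the set, the passing members of each pathway list or else the 3 with the highest mean, the 5 genes nearest to the gene with the largest difference, and the brightest markers of a cell type list. Other markers were named after their values were seen. The alternatives changed the probe set rule, the normalization, the prior of the variances or the array weights, dropped the dimmest 40% of genes, blocked on the replicate number, or left out each array in turn.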

Additional observations from a re-analysis of the deposited data

How the results depend on the processing

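None of the 10 genes passed in the 15 alternatives tried, except Fgfr2 without lateral ventricle array 2, so the count of passing genes of the set was 0 to 1 when single arrays were left out and 0 otherwise. Over all genes the count was 158 with array weights, against 46, and lay between 4 and 1644 when single arrays were left out. Leaving out arrays 1, 2 and 3 of the third ventricle in turn gave 7, 4 and 4, and leaving out lateral arrays 1, 2 and 3 gave 25, 1644 and 20. The median difference of the set ranged from 0.14 (lateral array 1 left out) to 0.41 (lateral array 2 left out). With single arrays left out, the difference of Spry1 ranged from -0.02 to 0.43 and that of Spry2 from -0.33 to 0.31, both lowest when lateral array 1 was dropped. Spry2 was also negative with array weights (-0.07) and when array 1 (-0.01) or 3 (-0.05) of the third ventricle was dropped. The summed signal of the astrocyte markers in lateral array 1, minus that of the highest array of the third ventricle, was 0.52 on the log2 scale and -0.0918 without Apoe. The cause of the changes in Spry1 and Spry2 was not tested. The adjusted p of Dusp6 ranged from 0.0802 to 0.672 and its difference from 0.56 to 1.41.

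The replicate number does not pair the arrays by the rule used, which asked for a correlation of deviations above 0.1 in every pair. The correlations of same-numbered arrays were 0.24, 0.111 and 0.0679, although every array correlated best with its own number. With the replicate block 57 genes passed, 0 of them from the set, and the median of the set was 0.28. With 3 arrays a group and 1 of them far from the others, the intervals of the feedback genes are wide.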
